A study of Mus musculus with 6 samples.

Results

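The genes described here encode LPP and other proteins of focal adhesions and actin stress fibres. These 49 genes were listed by role and chosen with earlier results of these data known. Of them, 48 had at least 1 probe set carrying their gene symbol and no other. They were covered by 144 of the 45037 probe sets tested and make up 48 of 18193 named genes. Rock2, a kinase acting downstream of RhoA, had no probe set naming it alone and is not analysed here. RNA came from endothelial cells harvested out of Matrigel, a basement membrane gel that had been implanted as plugs in the peritoneum of Balb/c nude mice, which lack a thymus. Plugs of the MFAP5 group held recombinant microfibrillar-associated protein 5, a secreted glycoprotein of elastic fibres, and control plugs held none. Each group had 3 samples and each sample 1 Affymetrix Mouse Genome 430 2.0 array. The design text calls the samples independent but does not say whether each came from its own mouse, and gives no dose, duration or age, so p-values measure the spread between these samples, which may be technical. The question is which adhesion and actin genes differ in the harvested RNA between gels with and without MFAP5. Markers of other cell types, such as adipocytes, also differed in this RNA, and their part in the differences was not tested.

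Focal adhesions are the plaques where integrins of the cell membrane, bound outside to the matrix, are coupled inside to actin filaments. Talin, kindlin and vinculin make that link, paxillin, p130Cas and Src signal from it, and zyxin, LPP and Ena/VASP proteins act where actin filaments are anchored and extended. Stress fibres are contractile bundles of actin, alpha-actinin, tropomyosin and non-muscle myosin II, governed by RhoA and its kinases. In endothelial cells these structures carry migration, barrier tension and the response to matrix stiffness. LPP is a LIM protein of the zyxin family whose proline-rich repeats bind Ena/VASP proteins, and Enah encodes Mena, one of these.

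Values were read as log2 signals. They were centred before deposit to a median of 0 for each probe set, and they show how arrays differ, not how abundant a transcript is. The log base, on which the folds rest, was inferred from the values, and natural logs remain possible. That a higher value means more signal is also an assumption that no label states. Triplets below give replicates 1, 2 and 3 in that order, control values come first where one triplet is set against another, and a difference is MFAP5 minus control on the log2 scale, with 3 arrays per group. A gene's value is the mean of its probe sets. Adjusted p is from limma over all 18193 genes, or over all 45037 probe sets where a single probe set is named, and a gene is said to have risen or fallen only where it is under 0.05. The controls were split into replicate 1 and replicates 2 and 3. Across the 48 member genes, which are not independent replicates, control replicate 1 correlated with control replicates 2 and 3 at -0.13 and -0.076. Over all probe sets it correlated with them at -0.028 and 0.020. Control replicates 2 and 3 correlated with each other at 0.88 over the members and 0.69 over all probe sets. Values were centred for each probe set, so unrelated arrays are expected to correlate near or below 0. Among the MFAP5 arrays, replicates 1 and 2 correlated at 0.38 over the members, and replicate 3 at -0.0043 and -0.010 with them. Over all probe sets MFAP5 replicates 1 and 2 correlated at 0.41, and replicate 3 at 0.35 and 0.25 with them. The bacterial spike-ins added to each hybridization split the controls too. Their mean signals were -0.32, 0.64 and 0.65 in the controls and -0.038, -0.0078 and -0.0065 in the MFAP5 group. Here control replicates 2 and 3 stood above all other arrays. Which part of the controls is unusual cannot be told from these values. Counts and leading genes are also given without control replicate 1, and differences against control replicate 1 alone.

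The stretches upstream of Lpp and Enah are shown because these were the member genes that passed the test, and the others because they hold a CArG box, the site bound by serum response factor (SRF), which drives many actin and adhesion genes and is itself a member. All are from RefSeq on GRCm38.p6, lie before an annotated transcript start and read 5′ to 3′ on the gene's strand. Capitals mark a CArG box, or in the second Lpp stretch the TEAD motif GGAATG. The first and second Lpp stretches precede 2 annotated starts.
Lpp chr16:24393100-24393349 (+ strand): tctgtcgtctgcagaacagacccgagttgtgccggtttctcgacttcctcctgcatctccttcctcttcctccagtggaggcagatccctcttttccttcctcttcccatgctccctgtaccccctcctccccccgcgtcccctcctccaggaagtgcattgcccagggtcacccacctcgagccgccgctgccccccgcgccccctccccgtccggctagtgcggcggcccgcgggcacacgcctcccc
Lpp chr16:24721605-24721854 (+ strand): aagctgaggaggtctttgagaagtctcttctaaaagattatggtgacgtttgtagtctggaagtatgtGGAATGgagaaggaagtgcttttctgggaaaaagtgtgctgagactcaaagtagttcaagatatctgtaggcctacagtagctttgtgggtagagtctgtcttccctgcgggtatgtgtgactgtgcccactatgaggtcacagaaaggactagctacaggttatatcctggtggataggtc
Enah chr1:182019981-182020230 (- strand): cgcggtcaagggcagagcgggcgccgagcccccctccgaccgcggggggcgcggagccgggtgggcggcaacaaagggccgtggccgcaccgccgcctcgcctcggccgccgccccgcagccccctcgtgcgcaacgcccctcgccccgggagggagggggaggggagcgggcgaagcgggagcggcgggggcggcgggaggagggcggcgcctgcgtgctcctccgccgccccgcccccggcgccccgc
Actg1 chr11:120348556-120348605 (- strand): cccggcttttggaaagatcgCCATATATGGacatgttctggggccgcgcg
Cnn2 chr10:79988524-79988573 (+ strand): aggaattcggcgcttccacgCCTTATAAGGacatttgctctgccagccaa
Fermt2 chr14:45530240-45530289 (- strand): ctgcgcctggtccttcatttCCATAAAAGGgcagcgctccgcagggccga
Myl9 chr2:156775283-156775332 (+ strand): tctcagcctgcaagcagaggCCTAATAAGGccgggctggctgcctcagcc
Srf chr17:46556195-46556264 (- strand): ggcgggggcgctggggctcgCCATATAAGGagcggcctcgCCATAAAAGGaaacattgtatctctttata
Vcl chr14:20929151-20929200 (+ strand): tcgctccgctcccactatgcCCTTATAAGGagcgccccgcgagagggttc

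Of 48 member genes 2 rose, Lpp and Enah, where 0.759% of all genes rose, and none fell, where 2.79% of all genes fell. At an unadjusted p under 0.05, 12 members were higher and 0 lower, against 5.33% and 14.4% of all genes (19.7% in either direction). The 3 MFAP5 values lay above the 3 control values in 12 members (6.51% of all genes) and below them in 1, Ilk (17.8% of all genes). A positive difference was found in 35 of 48 members and in 34.4% of all genes. The members' median difference was 0.17, with a middle 50% from -0.012 to 0.32, and the median of all genes was -0.079. Because the members were chosen with earlier results of these data known, their counts beside all genes are a description and not independent support. In the same arrays 8 of 9 measured adipocyte markers fell, with the median differences of the endothelial and fibroblast lists at -0.18 and 0.28, and their part in these counts was not tested. Without control replicate 1, 11 members passed as higher (Lpp, Enah, Lims1, Flna, Myh9, Rhoa, Rock1, Actb, Arpc2, Cald1 and Ezr) and 1, Bcar1, as lower, where 4.18% of all genes passed as higher and 10.5% as lower. No member passed with control replicate 2, control replicate 3, MFAP5 replicate 1 or MFAP5 replicate 2 left out. In these settings 0.077% to 0.671% of all genes passed as higher. Before adjustment 9 to 15 of 48 members and 2173 to 2931 of 18193 genes were under 0.05 (limma). Leaving out MFAP5 replicate 3 kept Enah alone, where 0.643% of all genes passed as higher.

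**Figure D1:**
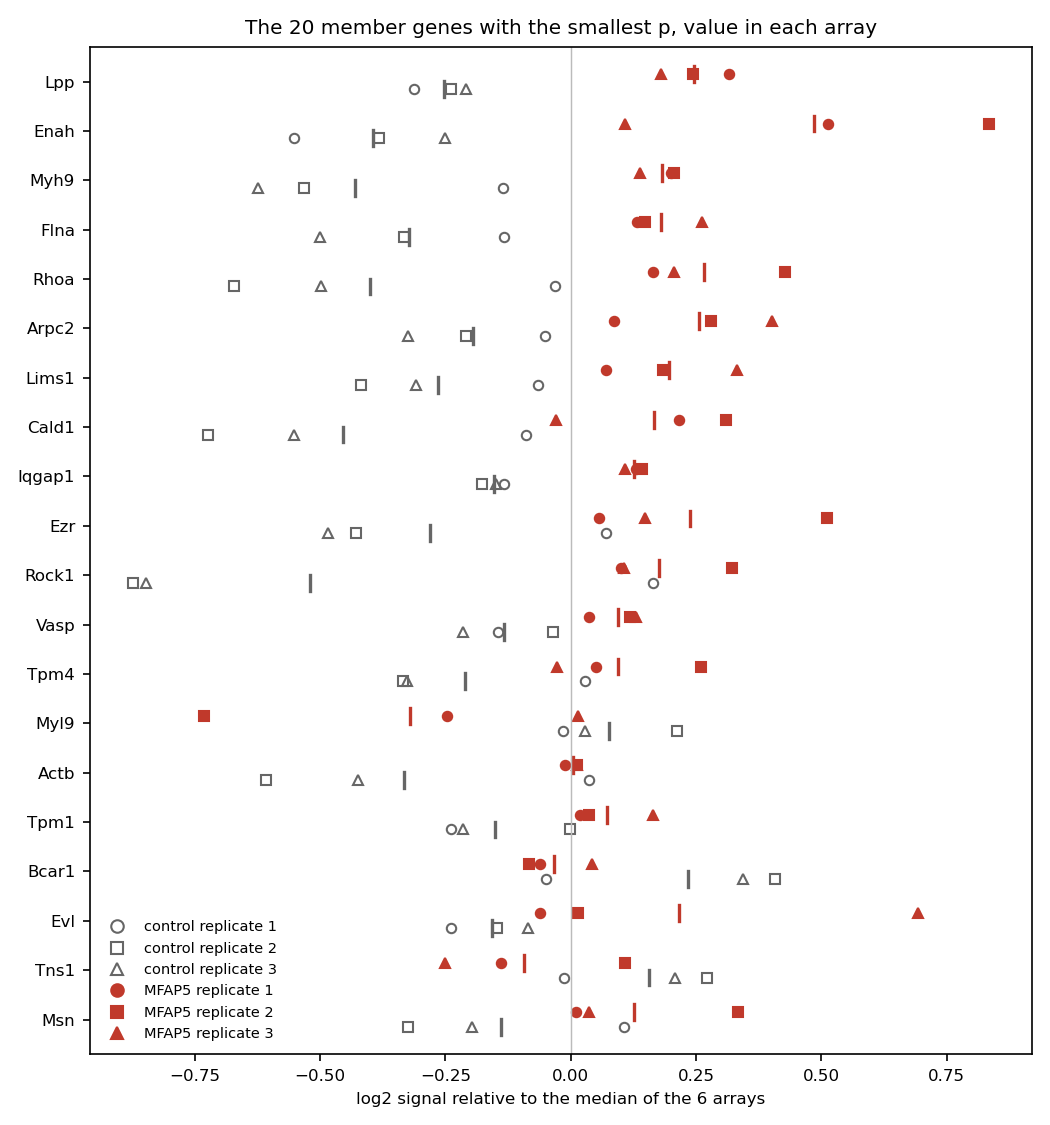
The horizontal axis gives log2 signal relative to the median of the 6 arrays for the 20 member genes with the smallest p, with 1 symbol per array (open grey, control; filled red, MFAP5) and a vertical bar at each group mean. In Lpp and Iqgap1 all 3 controls lie close together below the MFAP5 arrays, while in Rock1, Tpm4 and Ezr control replicate 1 lies among the MFAP5 arrays.

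Lpp, which links adhesions to Ena/VASP proteins and alpha-actinin, stood at -0.31, -0.24 and -0.21 in control arrays and at 0.32, 0.24 and 0.18 with MFAP5. The groups did not overlap, and the spread within each was small, with SDs of 0.054 and 0.068. The difference was 0.50 ± 0.10 (SE, n = 3 per group; limma adjusted p = 0.0275), a 1.41-fold higher signal. It was 0.47 without control replicate 1 (adjusted p = 0.0228) and 0.56 against control replicate 1 alone. With the median instead of the mean of its probe sets the difference was 0.34 and missed the threshold (adjusted p = 0.115).

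Its 8 probe sets all had a positive difference, of different size. Probe set 1425673_at read -0.78, -0.50 and -0.39 in control arrays and 0.50, 0.39 and 0.81 with MFAP5. Its difference was 1.13 ± 0.16 (adjusted p = 0.00908), a 2.18-fold higher signal, and it was the one Lpp probe set past the threshold. It also passed with each of the 6 arrays left out in turn, at differences of 1.00 to 1.21. Next in size were 1438271_at, at -0.12, -0.77 and -0.70 against 0.62, 0.33 and 0.12 (difference 0.88; adjusted p = 0.0574), and 1446698_at, at -0.80, -0.20 and -0.27 against 0.22, 0.20 and 0.61 (difference 0.77; adjusted p = 0.0734). In both the groups stayed apart, with control replicate 1 the highest control in the former and the lowest in the latter. Smaller differences were read by 1436714_at (0.31), 1455314_at (0.27), 1440167_s_at (0.25), 1437235_x_at (0.25) and 1454899_at (0.14), with adjusted p from 0.234 to 0.537. Of these, 1455314_at, at -0.12, -0.084 and -0.15 in control arrays and 0.18, 0.20 and 0.084 with MFAP5, and 1440167_s_at, at -0.31, -0.016 and -0.15 against 0.15, 0.11 and 0.016, kept the groups apart. Groups overlapped in 1436714_at, at -0.13, -0.23 and 0.026 against 0.40, 0.23 and -0.026, in 1437235_x_at, at -0.24, -0.11 and 0.11 against 0.32, 0.33 and -0.16, and in 1454899_at, at -0.0097, 0.0097 and -0.16 against 0.14, 0.15 and -0.022. In each of these 3 it was MFAP5 replicate 3 that read low, among the controls.

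**Figure D2:**
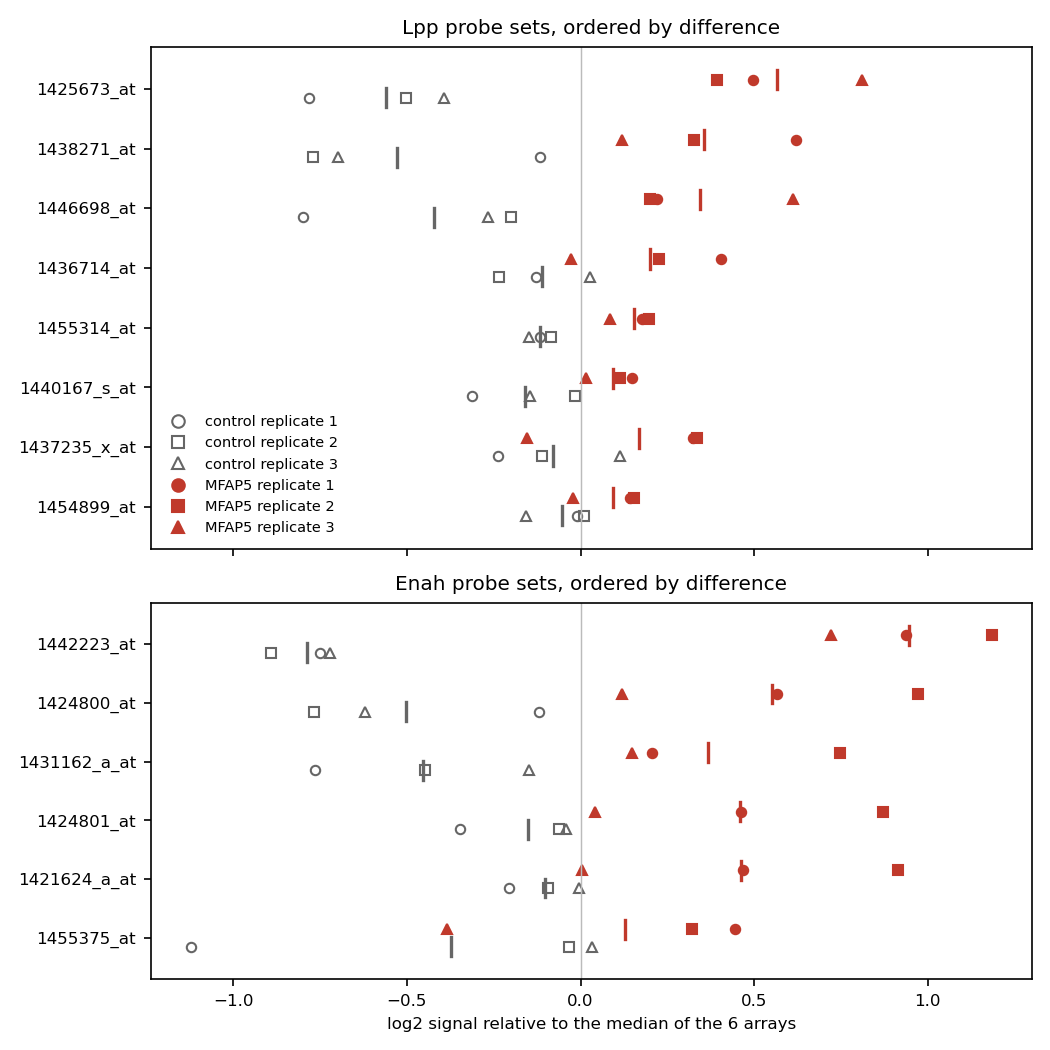
The horizontal axis gives log2 signal relative to the median of the 6 arrays for the 8 probe sets of Lpp (upper panel) and the 6 of Enah (lower panel), with 1 symbol per array and a bar at each group mean. The groups are far apart in 1425673_at of Lpp and 1442223_at of Enah and overlap in 3 Lpp probe sets and 1 Enah probe set.

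Enah, whose protein Mena protects growing actin filament ends from capping, had the largest positive difference of the members. Its control arrays read -0.55, -0.38 and -0.25 and its MFAP5 arrays 0.51, 0.84 and 0.11. The groups did not overlap, but the MFAP5 arrays were uneven, with replicate 3 nearest to the controls. The difference was 0.88 ± 0.18 (SE, n = 3 per group; limma adjusted p = 0.0361), a 1.84-fold higher signal, and 0.80 without control replicate 1 (adjusted p = 0.0460). Enah missed the threshold with quantile normalization (0.99; adjusted p = 0.0593) and with the spike-in level of each array as a covariate (0.96; adjusted p = 0.0836), where Lpp passed (adjusted p = 0.0308 and 0.0437). With each of the 6 arrays left out in turn, Enah passed in 2 fits and Lpp in 1. Without MFAP5 replicate 3 it was Enah that passed and Lpp that did not.

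All 6 probe sets of Enah were positive. The probe set 1442223_at read -0.75, -0.89 and -0.72 in control arrays and 0.94, 1.19 and 0.72 with MFAP5, a difference of 1.73 ± 0.14 (adjusted p = 0.00109) or a 3.33-fold higher signal. No other member probe set had a difference this large, and it passed with any 1 array left out, at 1.62 to 1.85. Following it were 1424800_at, at -0.12, -0.77 and -0.62 against 0.57, 0.97 and 0.12 (difference 1.06; adjusted p = 0.0562), and 1431162_a_at, at -0.77, -0.45 and -0.15 against 0.20, 0.75 and 0.15 (difference 0.82; adjusted p = 0.0768). In the probe sets 1424801_at, at -0.35, -0.062 and -0.041 against 0.46, 0.87 and 0.041, and 1421624_a_at, at -0.21, -0.094 and -0.0046 against 0.47, 0.91 and 0.0046, the differences were 0.61 and 0.56 (adjusted p = 0.168 and 0.208). Replicate 3 was the lowest MFAP5 array in all 6 and lay just above the controls in these 2. The sixth, 1455375_at, overlapped between groups, at -1.12, -0.034 and 0.034 against 0.44, 0.32 and -0.38 (difference 0.50; adjusted p = 0.446).

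The relatives of these genes had smaller differences. Vasp, the founding Ena/VASP protein, read -0.15, -0.036 and -0.22 in control arrays and 0.036, 0.12 and 0.13 with MFAP5, and Evl, the remaining one, read -0.24, -0.15 and -0.085 against -0.062, 0.015 and 0.69. Neither overlapped between groups, but in Evl the MFAP5 mean was carried by replicate 3. Their differences of 0.23 ± 0.10 (SE; adjusted p = 0.248) for Vasp and 0.37 ± 0.19 (SE; adjusted p = 0.316) for Evl missed the threshold. Zyx, the zyxin gene and the closest relative of Lpp among the members together with Trip6, differed by 0.21 ± 0.13 (SE; adjusted p = 0.408). Trip6 read -0.019, 0.11 and 0.13 against 0.019, -0.083 and -0.062, a difference of -0.12 with overlapping groups (adjusted p = 0.528). The 95% interval of the difference was -0.088 to 0.50 for Zyx and -0.34 to 0.10 for Trip6.

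**Figure D3:**
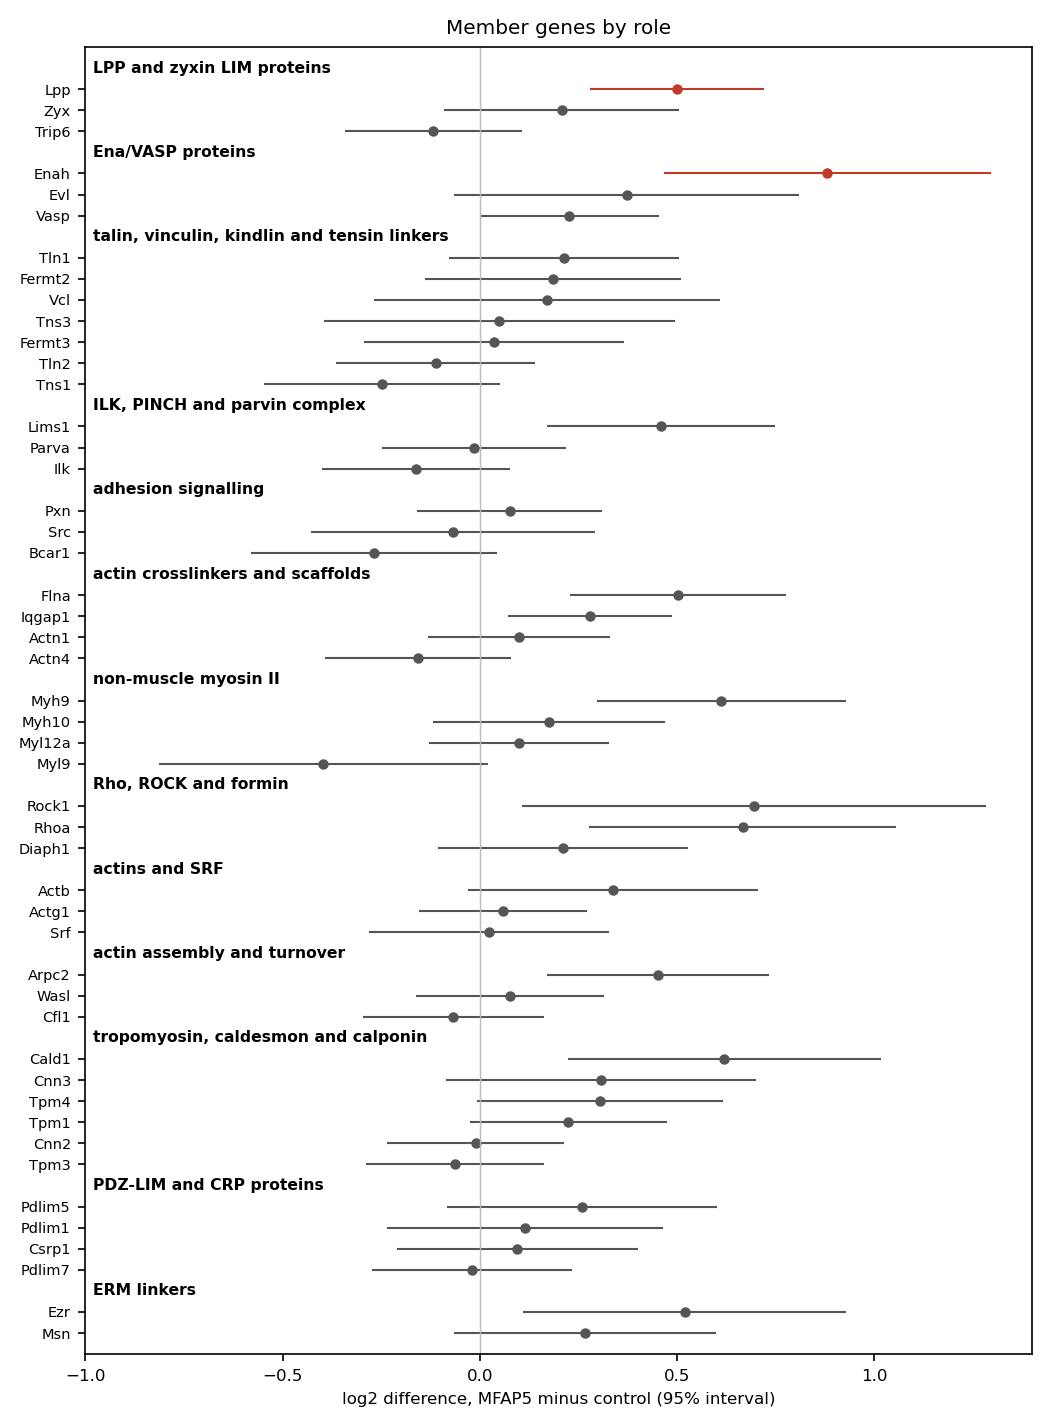
Points give the log2 difference, MFAP5 minus control, of the 48 member genes grouped by role, and lines the 95% interval from limma with 3 arrays per group. Lpp and Enah, in red, are the genes with adjusted p under 0.05, and 35 of the 48 points lie to the right of 0.

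The linkers between integrins and actin did not pass the test in either direction: of 7 such genes 5 had a positive and 2 a negative difference, with a median of 0.050. The largest positive one was that of Tln1, talin 1, which activates integrins. It read -0.12, -0.073 and -0.051 in control arrays and -0.12, 0.22 and 0.29 with MFAP5 (difference 0.21 ± 0.13 SE, adjusted p = 0.385). MFAP5 replicate 1 lay with the controls. Tns1, a tensin of mature adhesions, had the largest negative difference, at -0.013, 0.27 and 0.21 against -0.14, 0.11 and -0.25 (difference -0.25 ± 0.13 SE, adjusted p = 0.325). Between them were the kindlins Fermt2 (0.19) and Fermt3 (0.036), vinculin Vcl (0.17), Tns3 (0.050) and talin 2, Tln2 (-0.11), with adjusted p from 0.495 to 0.908. Within each of these genes probe sets differed in sign. Their differences ran from -0.39 to 0.49 in Tns3, -0.11 to 0.45 in Vcl and -0.10 to 0.48 in Fermt2. In Fermt3 they ran from -0.26 to 0.26 and in Tln2 from -0.21 to 0.035. Vcl was uneven, with MFAP5 values of -0.32, 0.43 and -0.038 and a 95% interval of the difference from -0.26 to 0.61.

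In the complex of ILK, PINCH and parvin, which joins kindlin-bound integrins to actin, the genes differed in sign. Lims1, which encodes PINCH1, read -0.066, -0.42 and -0.31 in control arrays and 0.071, 0.18 and 0.33 with MFAP5 without overlap, a difference of 0.46 ± 0.13 (SE; adjusted p = 0.0907). Ilk, the pseudokinase at its centre, was the one member gene whose MFAP5 values all lay below the controls, at 0.0052, 0.19 and 0.26 against -0.0052, -0.010 and -0.013 (difference -0.16 ± 0.10 SE, adjusted p = 0.421). The MFAP5 values of Ilk were close to one another and to control replicate 1. Parva was at -0.014 (adjusted p = 0.952). Among the signalling proteins, Bcar1, which encodes the Src substrate p130Cas, read -0.050, 0.41 and 0.34 against -0.062, -0.083 and 0.043 (difference -0.27 ± 0.14 SE, adjusted p = 0.313), and fell without control replicate 1 (-0.41; adjusted p = 0.0337). Pxn, paxillin, read -0.13, 0.063 and -0.020 against -0.024, 0.035 and 0.12, a difference of 0.075 (adjusted p = 0.706), and Src was at -0.068 (adjusted p = 0.831). All 3 of these signalling genes overlapped between groups.

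Crosslinkers and scaffolds of actin did not pass the test, with 3 positive differences and 1 negative. Flna, filamin A, which holds filaments in orthogonal networks and binds integrin tails, read -0.13, -0.33 and -0.50 in control arrays and 0.13, 0.15 and 0.26 with MFAP5. Iqgap1, a scaffold that binds actin, read -0.13, -0.18 and -0.15 against 0.13, 0.14 and 0.11. Neither gene overlapped between groups, and in Iqgap1 the replicates of each group were close together. The differences were 0.50 ± 0.12 (SE; adjusted p = 0.0585) for Flna and 0.28 ± 0.090 (SE; adjusted p = 0.141) for Iqgap1, both short of the threshold. The alpha-actinins differed less: Actn4 read 0.14, 0.15 and -0.017 against -0.15, -0.064 and 0.017 (difference -0.16 ± 0.10 SE, adjusted p = 0.430) and Actn1 was at 0.10 (adjusted p = 0.603).

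Myosin II subunits also pointed different ways. Myh9, the heavy chain of non-muscle myosin IIA and the motor of stress fibres, read -0.14, -0.53 and -0.62 in control arrays and 0.20, 0.21 and 0.14 with MFAP5, with no overlap. Its difference of 0.61 ± 0.14 (SE; adjusted p = 0.0508) was just short of the threshold, and all 5 of its probe sets were positive. Without control replicate 1, the highest of its controls, it was 0.76 (adjusted p = 0.00698). Myl9, a regulatory light chain abundant in smooth muscle, had the largest negative difference of any member, at -0.015, 0.21 and 0.029 against -0.25, -0.73 and 0.015 (difference -0.40 ± 0.18 SE, adjusted p = 0.272). Replicate 2 was the lowest MFAP5 array and replicate 3 lay among the controls. The 12 pericyte and smooth muscle markers had a median difference of -0.073. Myh10, the heavy chain of myosin IIB, and Myl12a, another regulatory light chain, were at 0.18 and 0.10 (adjusted p = 0.476 and 0.599).

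RhoA and its effectors had a median difference of 0.67 over 3 genes, none of which passed. Rhoa, the GTPase that sets stress fibre contraction, read -0.031, -0.67 and -0.50 in control arrays and 0.16, 0.43 and 0.21 with MFAP5, without overlap (difference 0.67 ± 0.17 SE, adjusted p = 0.0727). Rock1, a kinase that raises myosin light chain phosphorylation, read 0.16, -0.87 and -0.85 against 0.10, 0.32 and 0.11. In Rock1 control replicate 1 lay above 2 of the MFAP5 arrays, and the difference of 0.70 ± 0.26 (SE; adjusted p = 0.191) was 1.04 against control replicates 2 and 3 and 0.012 against control replicate 1. Diaph1, a formin that elongates actin filaments under RhoA, was at 0.21 (adjusted p = 0.429). Without control replicate 1 both Rhoa (0.85; adjusted p = 0.0104) and Rock1 (1.04; adjusted p = 0.00524) rose.

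The actin genes and Srf did not pass the test. Actb, cytoplasmic beta-actin, read 0.037, -0.61 and -0.43 in control arrays and -0.012, 0.012 and 0.012 with MFAP5 as the mean of 2 probe sets (difference 0.34 ± 0.16 SE, adjusted p = 0.287). One of them, 1419734_at, read 0.071, -1.21 and -0.86 against 0.022, 0.033 and -0.022 (difference 0.68), and the other, 1436722_a_at, read 0.0038, -0.0038 and 0.0065 against -0.045, -0.0089 and 0.046 (difference -0.0048). The former put control replicates 2 and 3 below all other arrays and the latter did not. The array's own control probe sets for beta-actin, which are not part of the gene value, differed by -0.021 at the 3′ end, -0.095 in the middle and -0.14 at the 5′ end (exact permutation test, two-sided, p = 0.5, 0.2 and 0.2; the smallest p that 3 against 3 allows is 0.1). The 3′ signal less the 5′ signal, a sign of RNA quality, was -0.0048, -0.053 and -0.032 in control arrays and 0.14, 0.082 and 0.036 with MFAP5 (difference 0.12, exact permutation test, two-sided, p = 0.1), and its part in the differences here was not tested. The same quantity for Gapdh overlapped between groups, at -0.16, 0.033 and -0.033 against 0.086, -0.038 and 0.034 (difference 0.081, exact permutation test, two-sided, p = 0.4). Actg1, cytoplasmic gamma-actin, was at 0.059 (adjusted p = 0.746; 95% interval -0.15 to 0.27) and Srf at 0.023 (adjusted p = 0.938; -0.28 to 0.32).

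For actin assembly, Arpc2, a core subunit of the branch-forming Arp2/3 complex, read -0.051, -0.21 and -0.33 in control arrays and 0.087, 0.28 and 0.40 with MFAP5. The groups did not overlap, and the difference was 0.45 ± 0.12 (SE; adjusted p = 0.0882). Cfl1, cofilin, which severs filaments, read -0.062, 0.085 and 0.12 against -0.077, 0.016 and 0.0058 (-0.068; adjusted p = 0.732), and Wasl, N-WASP, an activator of Arp2/3, was at 0.076 (adjusted p = 0.706). Neither of these kept the groups apart.

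Of the proteins that coat stress fibres, Cald1, caldesmon, which restrains myosin on actin, had the largest difference. It read -0.089, -0.72 and -0.55 in control arrays and 0.22, 0.31 and -0.030 with MFAP5 (difference 0.62 ± 0.17 SE, adjusted p = 0.0959), with no overlap but only 0.059 between control replicate 1 and MFAP5 replicate 3. Tpm4, a tropomyosin, read 0.028, -0.33 and -0.33 against 0.051, 0.26 and -0.028 (difference 0.30 ± 0.13 SE, adjusted p = 0.258), and Tpm1 read -0.24, -0.0016 and -0.21 against 0.018, 0.036 and 0.16 (difference 0.22 ± 0.11 SE, adjusted p = 0.293). Control replicate 1 overlapped the MFAP5 arrays in Tpm4, whereas in Tpm1 it was the lowest control. Tpm3 went slightly the other way, at 0.054, -0.038 and 0.077 against -0.11, -0.039 and 0.053 (-0.062; adjusted p = 0.748). The calponins Cnn3 and Cnn2 were at 0.31 and -0.011 (adjusted p = 0.354 and 0.963).

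PDZ-LIM and cysteine-rich LIM proteins, which sit on alpha-actinin, had overlapping groups throughout. Pdlim5 read 0.10, -0.30 and -0.19 in control arrays and -0.065, 0.36 and 0.10 with MFAP5 (difference 0.26 ± 0.15 SE, adjusted p = 0.371), and Pdlim7 read -0.072, 0.094 and 0.11 against 0.031, 0.15 and -0.10 (difference -0.019 ± 0.11 SE, adjusted p = 0.939). Pdlim1 and Csrp1 were at 0.11 and 0.095 (adjusted p = 0.703 and 0.718), in both of which MFAP5 replicate 2 was the highest array. Ezrin and moesin tether cortical actin to the membrane. Ezr read 0.070, -0.43 and -0.48 against 0.057, 0.51 and 0.15 (difference 0.52 ± 0.18 SE, adjusted p = 0.162) and Msn read 0.11, -0.33 and -0.20 against 0.011, 0.33 and 0.037 (difference 0.27 ± 0.14 SE, adjusted p = 0.343). In both, control replicate 1 lay among the MFAP5 arrays and control replicates 2 and 3 below all others.

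Members differed in where control replicate 1 stood beside the other controls. Control replicate 1 was the highest control in 22 of 48 member genes (26.5% of all genes) and the lowest in 21 (55.2% of all genes). It exceeded the mean of the other controls by more than 0.3 in 11 (9.34% of all genes). Against control replicate 1 alone, 8 members had a mean difference over 0.3 and 1 a difference under -0.3. Those 8 were Enah (1.04), Lpp (0.56), Evl (0.45), Zyx (0.32), Myh9 (0.32), Flna (0.31), Tpm1 (0.31) and Arpc2 (0.31), and the gene under -0.3 was Myl9 (-0.31). Against control replicates 2 and 3, 16 members were over 0.3, led by Rock1 (1.04), Rhoa (0.85), Cald1 (0.80), Enah (0.80) and Myh9 (0.76), and 3 were under -0.3. Actb, Cnn3 and Rock1 were at -0.033, -0.019 and 0.012 against control replicate 1 and at 0.52, 0.47 and 1.04 against the other controls. With control replicate 1 as the sole control the members' median difference was 0.092, where the median of all genes was -0.022. This comparison rests on 1 control array.

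**Figure D4:**
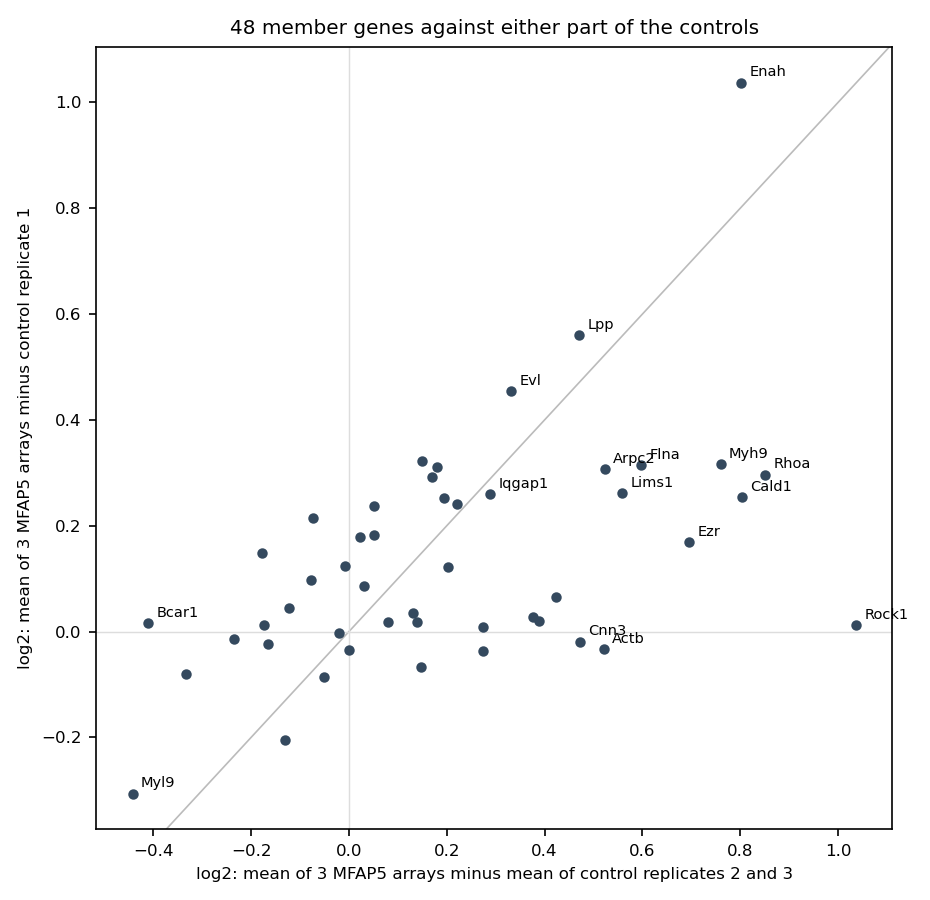
Each point is 1 of the 48 member genes, with the mean of the 3 MFAP5 arrays less the mean of control replicates 2 and 3 on the horizontal axis and less control replicate 1 on the vertical axis, both as log2 differences; the grey diagonal marks equality. Enah, Lpp and Evl lie above the diagonal, while Rock1, Actb and Cnn3 lie near 0 on the vertical axis and at 1.04, 0.52 and 0.47 on the horizontal one.

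Single probe sets passed the test in genes whose mean did not. Of the 144 member probe sets 6 rose, where 1.56% of all probe sets rose, and none fell, where 1.72% did; 36 lay above the controls without overlap (9% of all probe sets) and 3 below (14.2%). The 6 belonged to Enah, Rhoa, Lims1, Lpp, Arpc2 and Tpm1. For Rhoa, 1443768_at read -0.44, -0.49 and -0.44 in control arrays and 0.44, 0.81 and 0.66 with MFAP5, a difference of 1.10 ± 0.13 (adjusted p = 0.00412). Here all 3 controls were alike, while the other Rhoa probe sets, 1450632_at at 0.27, -0.96 and -0.63 against 0.026, 0.31 and -0.026 and 1437628_s_at at 0.080, -0.57 and -0.41 against 0.021, 0.17 and -0.021, put control replicate 1 level with the MFAP5 arrays. Lims1 probe sets differed too, with 1443947_at at -0.37, -0.80 and -0.59 against 0.42, 0.37 and 0.56 (difference 1.04, limma adjusted p = 0.00831). The differences of its other probe sets were 0.78 in 1441411_at, 0.40 in 1418230_a_at, 0.10 in 1418232_s_at and -0.024 in 1418231_at, all short of the threshold. In Arpc2, 1442295_at read -0.20, -0.37 and -0.56 against 0.20, 0.49 and 0.78 (difference 0.87; adjusted p = 0.0335) while 1437148_at differed by 0.037. Tpm1 had 1456623_at at -0.48, -0.19 and -0.69 against 0.28, 0.19 and 0.35 (difference 0.73; adjusted p = 0.0376), and its other probe sets were at 0.27, 0.023 and -0.13. The probe sets of Enah, Lpp and Rhoa passed whichever array was left out, and without control replicate 1 a total of 35 member probe sets passed as higher and 4 as lower, where 6.26% and 7.48% of all probe sets did.

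Of 39 members with several probe sets 17 had all of them on the same side of 0, and in 19 the probe sets spanned more than 0.5. The platform annotation lists a sequence accession for most probe sets, and 5 of the 6 that rose were listed under an accession of an expressed sequence tag, a single-pass read of a cDNA end. Over the 79 member probe sets listed that way 6.33% rose and the median difference was 0.26, and over the 52 with other accessions 1.92% rose and the median was 0.15. The shares over all probe sets with 1 symbol were 1.15% and 0.626%, with medians of -0.035 and -0.099. With the gene value taken from other accessions alone, which left 31 members, Lpp rose by 1.13 (adjusted p = 0.00458), where it rested on 1425673_at, and Enah was at 0.69 (adjusted p = 0.0940).

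**Figure D5:**
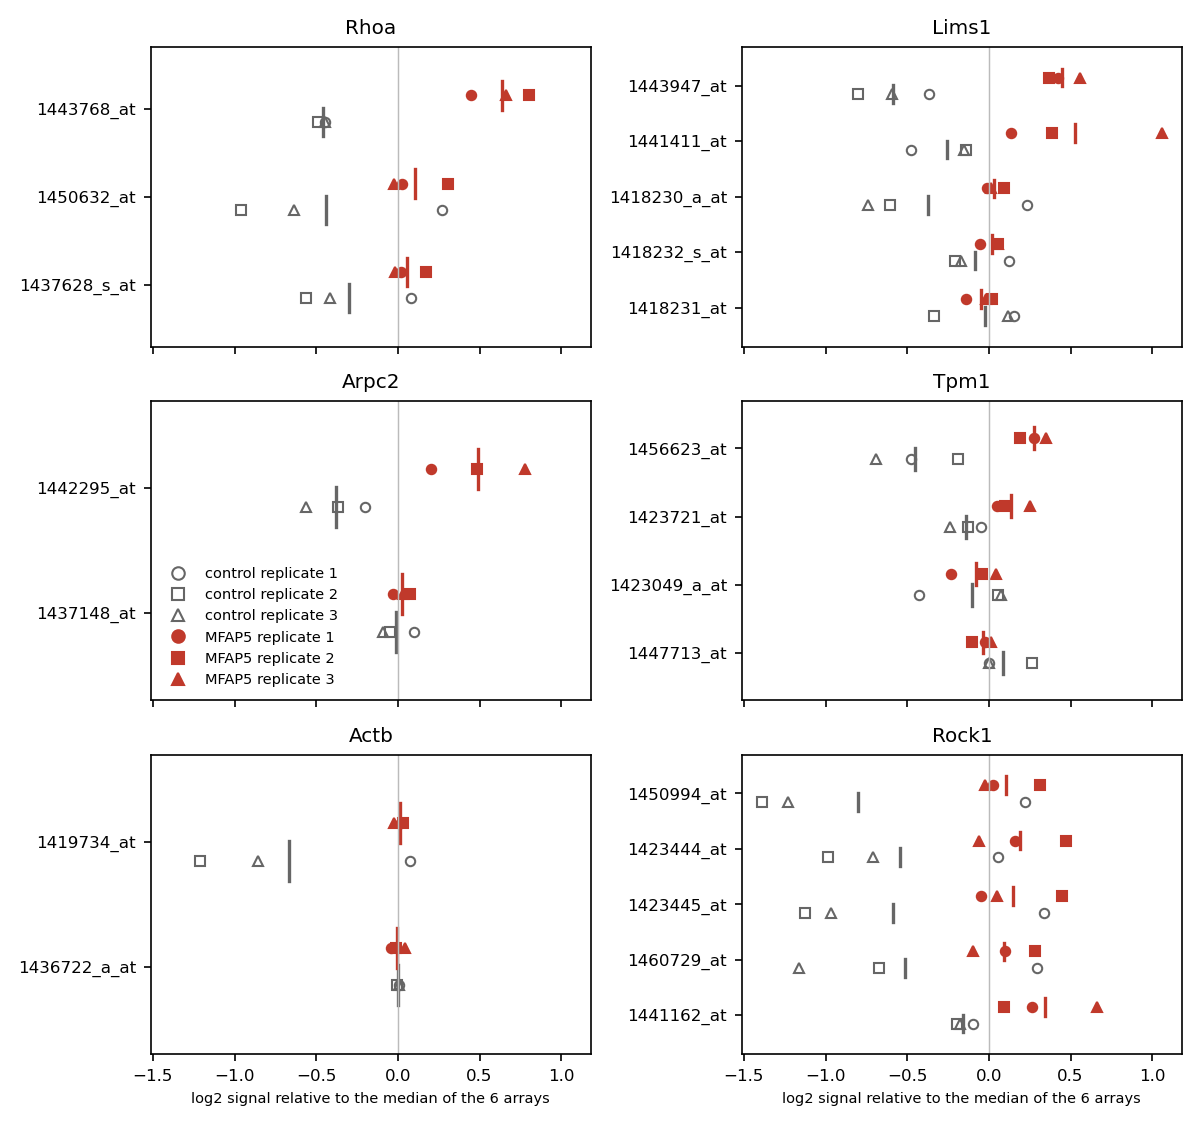
Each panel shows the probe sets of 1 member gene, with log2 signal relative to the median of the 6 arrays on the horizontal axis, 1 symbol per array and a bar at each group mean. In 1443768_at of Rhoa and 1443947_at of Lims1 all controls lie below all MFAP5 arrays, whereas in 1419734_at of Actb and 4 of the 5 Rock1 probe sets control replicates 2 and 3 lie apart from the other 4 arrays.

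Other genes of adhesion and actin control were split evenly in sign, where 34.4% of all genes had a positive difference. They were listed by function, also with earlier results of these data known. Of 102 such genes 91 were measured, 46 with a positive and 45 with a negative difference. Their median was 0.0099, and that of all genes -0.079. The MFAP5 values lay above the control values without overlap in 12 and below them in 7, against 6.51% and 17.8% of all genes. None rose, where 0.759% of all genes rose, and 1 fell, where 2.79% fell. At an unadjusted p under 0.05 in limma, 11 were higher and 4 lower, against 5.33% and 14.4% of all genes. The gene that fell was Lims2, which encodes PINCH2, the relative of Lims1. It read 0.23, 0.57 and 0.20 in control arrays and -0.25, -0.20 and -0.58 with MFAP5 (difference -0.68, limma adjusted p = 0.0455). The smallest p among the positive ones was that of Rhob, at 0.69 (adjusted p = 0.0577). Git2, a paxillin-binding regulator of Arf GTPases, was at 0.50, Palld, palladin, at 0.41 and Ppp1r12a, the targeting subunit of myosin phosphatase, at 0.48 (adjusted p = 0.0589, 0.0743 and 0.0852), all short of the threshold. The smooth muscle genes Acta2, Tagln, Myh11 and Cnn1 were at 0.14, -0.12, -0.0098 and -0.037 (adjusted p = 0.509 to 0.967). Without control replicate 1, 13 genes of this list passed as higher and 5 as lower, against 4.18% and 10.5% of all genes. Lims2 lost its call with control replicate 2 or 3 or MFAP5 replicate 1 or 2 left out.

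A CArG box was found within 250 bases before to 50 after an annotated start in 7 of the 43 members for which RefSeq gave such a window, or 16.3%, and in 1.81% of all 27025 genes with a window. The 7 were Actg1, Cnn2, Fermt2, Myl9, Srf, Trip6 and Vcl, and Srf had 2. Their differences lay between -0.40 and 0.19 with a median of 0.023, 4 of 7 positive, and the 35 measured members whose window had none had a median of 0.21. None of the 7 passed the test. The TEAD motif GGAATG, searched on both strands, was found in 11 of 43 members, Lpp among them, and in 16.6% of all genes. The differences of these 11 lay between -0.16 and 0.62, 9 of them positive. Their median was 0.22, and that of the 31 measured members without the motif was 0.099. The AP-1 motif TGANTCA was found in 5 of 43 members and in 8.97% of all genes. Median differences with and without it were 0.21 and 0.17. No link between a motif and the differences was tested. No searched motif lay in the Enah window or at the first Lpp start. Actb, Diaph1, Parva, Pxn, Rock1 and Tln2 are not in the table of windows. A match describes letters and is not evidence of binding.

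Adipocyte markers and single markers of some other cell types differed between the groups, while no marker on the endothelial, macrophage or mesothelial lists passed. Over all genes, 11935 of 18193 had a negative difference and 6258 a positive one. Of all genes 0.759% rose, 2.79% fell and 19.7% had an unadjusted p under 0.05 (limma). In bulk RNA fewer cells of a type and less RNA per cell cannot be told apart, and centred signals have no 0, so neither the presence nor the absence of endothelial markers could be checked. All 9 measured adipocyte markers were lower with MFAP5, 8 of them past the threshold, with the smallest p in Slc2a4 (-2.60) and Lep (-3.02), and array medians of 1.15, 1.35 and 1.30 in control arrays and -3.99, -2.64 and -0.97 with MFAP5. Of 14 endothelial markers 11 had a negative difference and none passed, with 3 at an unadjusted p under 0.05, the smallest p being those of Tek (-0.75) and Pecam1 (-0.71), and their array medians were -0.059, 0.20 and 0.14 against -0.079, -0.15 and -0.027. Fibroblast markers leaned the other way: 9 of 10 had a positive difference, Fn1, fibronectin, rose by 0.83 (adjusted p = 0.0153) and Pi16 fell by 0.93 (adjusted p = 0.0336), with array medians of 0.0073, -0.25 and -0.21 against 0.17, 0.10 and 0.0047. Of 12 pericyte and smooth muscle markers 8 were negative and Mcam fell by 2.24 (adjusted p = 0.00359), with Rgs5 at -0.45 (adjusted p = 0.0933) and array medians of -0.030, 0.066 and 0.019 against -0.16, -0.021 and -0.028. Of 7 neutrophil markers S100a8 (-1.63), S100a9 (-1.22) and Mmp9 (-0.87) fell, with array medians of 0.18, 0.53 and 0.45 against -0.16, -0.26 and -0.014. The remaining neutrophil markers, Camp (-0.35), Cxcr2 (-0.24), Ngp (-0.035) and Csf3r (0.061), did not pass. Of 7 skeletal muscle markers Myl1 fell by 2.29 and Actn3 was at -0.70 (adjusted p = 0.0778), with array medians of 0.037, 0.31 and 0.20 against -0.13, 0.022 and -0.12. Acta1 (-0.54), Tnnt3 (-0.31), Mb (-0.29), Myh4 (-0.062) and Ckm (0.058) did not pass. None of 8 macrophage markers passed (limma, 2 at an unadjusted p under 0.05), with Cd68 at -0.43, Itgam at 0.36 and array medians of 0.016, -0.027 and 0.021 against -0.075, -0.12 and 0.073. None of 7 mesothelial markers passed either (limma, 1 unadjusted), with Msln at -0.34, Wt1 at -0.17 and array medians of -0.070, 0.12 and 0.049 against -0.10, 0.024 and -0.067. The part of these cells in the differences of adhesion and actin genes was not tested.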

How the data were processed

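Total RNA of 3 control and 3 MFAP5 samples was hybridized, after in vitro transcription with biotin, to 1 Affymetrix array each, per the labels. MAS5 is named in the submitters' processing notes, and what followed it is not given in the sources used. The deposited values were read as log2 signals: probe set medians were 0 to within 5e-07, and the widest range of a probe set, 8.24, was too wide for base 10. That higher values stand for more signal was assumed, since no label says so. Natural logs remain possible and would make the printed differences and folds too small. Centring allowed no filter on dim probe sets. Of 45101 probe sets 64 array controls were left out; 34945 had 1 gene symbol in the platform annotation, 932 several and 9160 were not listed. Symbols were updated through Entrez identifiers in RefSeq (GRCm38.p6), which held 34741.

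The test was limma 3.58.1 in R 4.3.3 (lmFit, then eBayes with no trend), two-sided, with Benjamini-Hochberg adjustment over all features and a threshold of 0.05. The procedure was tested on simulated data. Array values were compared by exact permutation. The members, lists and named genes were chosen with earlier results of these data known. By the naming rule, values in every array are given for Lpp and Enah, the 20 members of smallest p and the extremes of each role, with up to 12 called genes of the wider list and of each marker list the 2 of smallest p; genes of the wider list named beyond it, such as Rhob and Acta2, were chosen after their values were seen. Alternatives were other normalizations, array weights, a replicate block, each array left out, a variance trend, an unmoderated statistic, a spike-in covariate and other gene summaries. Chosen after seeing the data were control replicate 1 as the sole control and probe sets without tag accessions.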

Additional observations from a re-analysis of the deposited data

How the results depend on the processing

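Of 48 member genes 31 kept the sign of their difference in all 18 alternatives that gave them a value, Lpp and Enah among them. The count of members past the threshold as higher was 2 in the report. It was 13 with array weights (6.18% of all genes), 6 with the probe set of largest SD (1.23%) and 4 without _x_at and _s_at probe sets (0.776%). It was 1 with the spike-in covariate (0.264%), 1 without tag accessions (0.749%), and 0 with the median of probe sets (0.621%) or the unmoderated statistic (0%). With each of these last settings 10 members had an unadjusted p under 0.05 (limma), against 3438 and 2815 of 18193 genes. Array weights made 1 member lower (15.8% of all genes). Leaving out 1 array gave 0 to 11 members higher and 0 to 1 lower, and 0 to 13 genes of the wider list higher and 0 to 5 lower. In these fits 0.077% to 4.18% of all genes were higher and 1.13% to 10.5% lower. Member probe sets were higher in 3 to 35 and lower in 0 to 4, where 0.2% to 6.26% and 0.557% to 7.48% of all probe sets were. The replicate numbers were not taken to pair the samples, since deviations of same-numbered samples correlated at 0.21, 0.054 and 0.085, and control replicate 2 correlated more with MFAP5 replicate 3 (0.084) than with its own number. With the replicate block, 2 members were higher (0.841% of all genes), Enah (limma adjusted p = 0.0413) and Myh9 (0.0447), and Lpp missed the threshold (0.0526). There 13 member probe sets were higher in place of 6 (2.21% of all probe sets). Member probe sets higher were 38 with array weights (6.76% of all; 3 lower, 8.49%), 10 with a variance trend (1.92%) and 0 with the unmoderated statistic, where 6433 probe sets had an unadjusted p under 0.05. Genes of the wider list higher were 15 with array weights (6.18% of all genes), where 6 were lower (15.8%). They were 2 with quantile normalization (1.01%) or the largest-SD probe set (1.23%). They were 1 with median centring (0.89%), a variance trend (0.868%) or the median of probe sets (0.621%). The 1 lower gene was 0 with quantile normalization (2.93% of all genes) and the unmoderated statistic (0.0055%). It was also 0 with the spike-in covariate (1.74%) and the largest-SD probe set (2.75%). The members' median difference was 0.10 to 0.22 with 1 array left out, 0.29 with the largest-SD probe set and 0.092 against control replicate 1.

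The median of all genes was -0.036 after quantile normalization and -0.044 after median centring. Signs that turned all belonged to differences short of the threshold. With quantile normalization and median centring they were Parva (0.022 and 0.020), Cnn2 (0.017 and 0.024) and Pdlim7 (0.039 and 0.015). The others were Fermt3 with array weights (-0.0069); Src (0.043) and Pdlim7 (0.042) with the spike-in covariate; Pdlim7 with the median of probe sets (0.017); Fermt3 (-0.26), Parva (0.25) and Srf (-0.020) with the largest-SD probe set. Without _x_at and _s_at probe sets they were Pxn (-0.0091), Srf (-0.020), Cnn3 (-0.018) and Pdlim7 (0.0057), and without tag accessions Pxn (-0.0091) and Pdlim7 (0.0057). Against control replicate 1 they were Tln2 (0.013), Vcl (-0.037), Bcar1 (0.016), Src (0.15), Actb (-0.033), Cfl1 (0.044), Wasl (-0.067), Cnn3 (-0.019) and Pdlim7 (0.10). Leaving out 1 array turned Cnn2 (-0.043 to 0.043), Csrp1 (-0.039 to 0.16), Fermt3 (-0.12 to 0.13), Parva (-0.081 to 0.033), Pdlim1 (-0.038 to 0.23), Pdlim7 (-0.081 to 0.045), Src (-0.18 to 0.068), Srf (-0.073 to 0.13), Tns3 (-0.17 to 0.21) and Vcl (-0.034 to 0.34). The cause was not tested. The number of arrays limits the precision.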
